A study of Drosophila melanogaster with 12 samples.

Results

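The Pao and Copia families of LTR retrotransposons were described by their RNA levels in *Drosophila melanogaster* ovaries. An entry is the sum of the reads that the authors assigned to 1 named repeat sequence. Entries were taken when their identifier placed them in the LTR class and outside the Gypsy family. This gave 27 entries of the 201 TE family entries and of 18039 named features. Of these, 17 belonged to the Pao family and 10 to the Copia family, and 0 belonged to any other LTR family. The 27 entries came from 14 elements, 9 of Pao and 5 of Copia. An internal entry, which covers the body of an element, was paired by name with the entry of its long terminal repeat (LTR) in 13 elements, and TRAM had an internal entry only.

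RNA was sequenced from ovaries of females aged 4 days and of 2 genotypes, with 3 RNA-seq libraries for each. D1 mutant females carried D1 Kyoto over D1 Bsc666, a deficiency that spans *D1*, and control females carried D1 Kyoto over the TM6C balancer. Both groups were also *chk2* mutant, so no library came from flies with intact *chk2*, and the third chromosome carrying the balancer differed between the groups. The experiment addressed whether loss of D1, a protein that binds satellite DNA, altered the repression of transposons. Small RNA libraries of both genotypes (3 each) were not analysed here. The values used are 1 mean per entry over the RNA-seq libraries of both genotypes, divided by size factors and averaged by the authors. D1 mutant and control ovaries were therefore not compared here, and no value below has a replicate error. Every order of levels given below is an order of these means, with no test. Fewer cells of a type and less RNA per cell cannot be told apart in such bulk samples.

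LTR retrotransposons copy themselves through an RNA that starts in the 5′ LTR and ends in the 3′ LTR. The internal part encodes Gag, which builds the particle that packages the RNA, and Pol, with the protease, integrase and reverse transcriptase that turn it back into DNA. Reverse transcription usually starts from the 3′ end of a tRNA paired with the bases just after the 5′ LTR, and copia is known for using an internal fragment of the initiator methionine tRNA instead. In the fly ovary, piRNAs guide the silencing of such elements in germ cells and in the somatic follicle cells around them.

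The start of the internal part is shown because it separates the elements by their possible primer, a feature that the choice of entries did not use. The 6 elements are those with the highest summed means among those with a suitable reference copy, matched by name and carrying terminal repeats. BEL, BATUMI and NINJA had no copy matched by name. Each line begins in the last bases of the 5′ LTR and runs into the internal part, 5′ to 3′ on the strand of the element, as read from the RefSeq genome of *D. melanogaster* release 6. Capitals mark the 18 bases that follow the 5′ LTR, and the coordinates are those of the whole copy.
Copia (copy at chr3L:12957842-12962265, minus strand): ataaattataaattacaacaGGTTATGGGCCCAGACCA
ROO (copy at chr2L:19703592-19712669, minus strand): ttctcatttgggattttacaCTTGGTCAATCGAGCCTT
DIVER (copy at chr2L:6876832-6882964, plus strand): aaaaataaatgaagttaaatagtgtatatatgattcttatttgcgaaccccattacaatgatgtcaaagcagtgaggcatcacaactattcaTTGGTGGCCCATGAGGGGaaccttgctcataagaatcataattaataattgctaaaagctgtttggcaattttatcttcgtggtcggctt
MAX (copy at chr2L:22765149-22773721, plus strand): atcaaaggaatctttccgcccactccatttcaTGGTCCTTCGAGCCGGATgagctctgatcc
DIVER2 (copy at chr3L:23407467-23412593, plus strand): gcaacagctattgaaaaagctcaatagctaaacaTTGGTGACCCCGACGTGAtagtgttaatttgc
DM1731 (copy at chr3L:25368649-25373298, plus strand): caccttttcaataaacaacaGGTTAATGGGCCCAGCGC

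The 18 bases of MAX were complementary in full to the 3′ end of tRNA:Tyr-GTA with its CCA tail. In DIVER, 17 of the 18 bases were complementary to the 3′ end of tRNA:Ile-AAT, and in DIVER2 17 bases were complementary to the 3′ end of tRNA:Trp-CCA. Both runs began at base 2 of the window. In Copia, 14 bases were complementary to tRNA:iMet-CAT, at tRNA positions 26 to 39 of 75, inside the tRNA and away from its 3′ end. DM1731 is the other Copia family element shown. Its copy at chr3R:8898777-8903424, of median length, had 15 bases complementary to positions 25 to 39 of the same tRNA, and the copy printed above had a run of 11. ROO had no run of 8 bases or more. The search covered 295 annotated tRNA genes with CCA added. Of 13366 windows of 18 bases, taken every 10000 bases along the reference, 2 held a run of 14 or more (0.0150%). A match describes these letters and not a primer in use.

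Copia held the largest share of the TE family counts of any single entry in these ovaries. Copia_I-int, the internal entry of copia, had a mean normalised count of 147385, the highest of the 201 TE family entries and 46.5% of their sum. The 26 other members summed to 22020, so Copia_I-int was 6.69 times all of them together and 23.1 times the next member. The 27 members together summed to 169405, which was 53.4% of all TE family counts and 0.368% of the summed mean over all features. Gypsy, with 105 entries, held 29.1%, LINE elements held 12.3%, DNA transposons 3.51% and rolling-circle elements 1.68%. Without Copia_I-int, the remaining members were 13.0% of the remaining TE family counts.

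**Figure D1:**
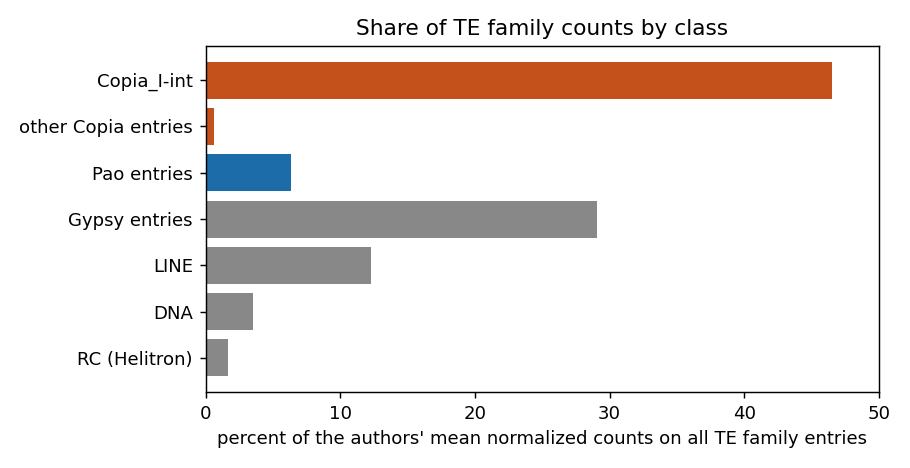
Share of the summed TE family counts (percent, from the authors' mean normalised counts) held by the members and by the other classes of element. The Copia_I-int entry alone holds 46.5%, and the Pao family holds 6.34%.

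The 17 Pao entries summed to 20084 (6.34% of TE family counts), and the 9 Copia family entries other than Copia_I-int to 1937 (0.611%). A typical member was not abundant. The median of the 27 entries was 211, against 216 over the 174 other TE family entries and 207 over the Gypsy entries. A mean of at least 10 was reached by 22 of the 27 members and 97 of the 105 Gypsy entries. A mean of at least 1000 was reached by 5 of the 27 members and 15 of the Gypsy entries. Of the members, 4 were among the 10 highest TE family entries and 14 were in the lower part of the ranking, below its midpoint.

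Among the internal entries, all of which hold coding sequence of Gag and Pol or remnants of it, Pao elements filled the places after copia. ROO_I-int had a mean of 6384 normalised counts and ranked 4 among TE family entries. DIVER_I-int had 4288 and ranked 8, BEL_I-int had 3250 and ranked 10, and MAX_I-int had 2107 and ranked 19. These 4 were the only Pao entries above 1000. BATUMI_I-int had 899.9 and NINJA_I-int had 806. DIVER2_I-int had 601 and ROOA_I-int had 451. In the Copia family, DM1731_I-int had 595, Copia1-I_DM had 518 and Copia2_I-int had 498, so that copia stood apart from 3 relatives with similar counts. These are counts per entry and not per length. The remaining 2 elements, named after their values were seen, were FROGGER of the Copia family, with 33.8 on its internal entry, and TRAM of the Pao family, with 4.06.

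**Figure D2:**
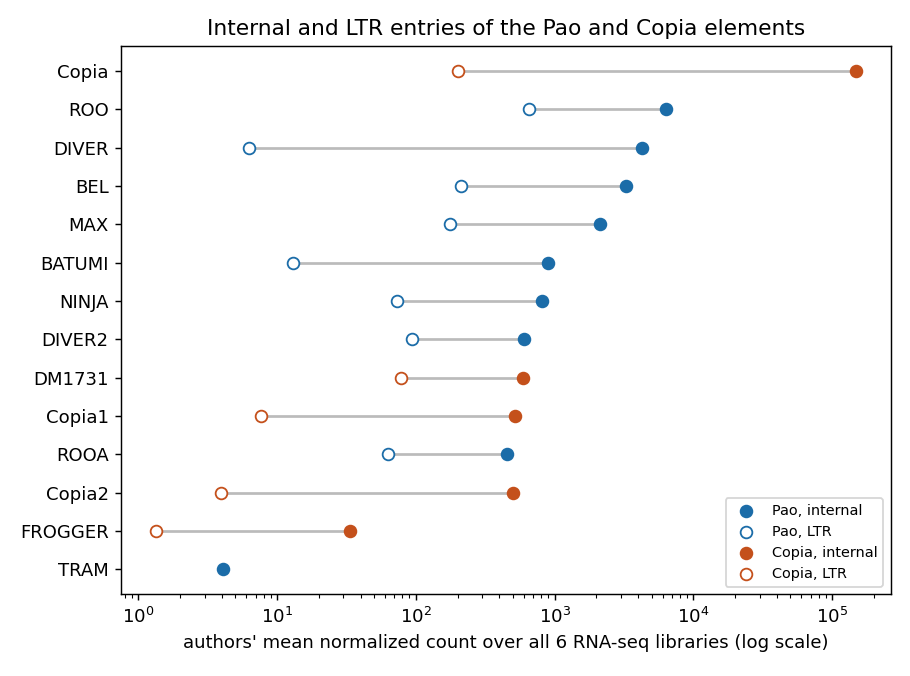
Authors' mean normalised count (log scale) of the internal and LTR entries of the 14 elements, with the entries of each element joined. Copia_I-int stands at 147385 and the internal entry lies above the LTR entry in 13 of 13 pairs.

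LTR entries hold the promoter and the polyadenylation signal of an element. Their highest mean was 655, for ROO_LTR, followed by BEL_LTR with 211, Copia_LTR with 200.7 and MAX_LTR with 177. DIVER2_LTR had 94.6, DM1731_LTR 78.7, NINJA_LTR 73.6 and ROOA_LTR 63.1. The 5 other LTR entries lay between 1.35 and 13.0. The median was 73.6 over the 13 LTR entries, and it was 704 over the 14 internal entries.

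The internal entry was the higher one in 13 of 13 pairs, but by very different factors. In Copia the internal entry was 734 times the LTR entry, and in DIVER it was 686 times (4288 against 6.25). Copia2 had a ratio of 127, BATUMI of 69.1 and Copia1 of 67.3. The ratio was 15.4 in BEL, 11.9 in MAX, 10.9 in NINJA and 9.74 in ROO. The lowest ratios were 7.57 in DM1731, 7.14 in ROOA and 6.36 in DIVER2. ROO and DIVER were next to each other in summed mean and stood far apart in this ratio. Of the 13 pairs, 6 were above 20. Among these, the LTR entry was under 10 in DIVER (6.25), Copia1 (7.69), Copia2 (3.93) and FROGGER (1.35). The 45 Gypsy pairs had a median of 7.04 with 10 above 20 and 2 below 1, and the members had a median of 15.4 with 0 below 1. In the 58 LTR class pairs, Copia and DIVER held the second and the third place, and a Gypsy pair held the first with 1411. The LTR entry of that Gypsy pair was only 0.792.

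An internal part is longer than an LTR, so the ratio was also taken per length. This used the 8 elements whose annotated reference copies were matched by name. No copies were matched for BEL, BATUMI, NINJA, Copia1, Copia2 and TRAM, which does not show that the reference lacks them. The internal length and the length of both LTRs came from the median copy with terminal repeats, a choice made after seeing the data, beside the longest copy. Both LTRs were counted at full length, although the RNA starts in the 5′ LTR and ends in the 3′ LTR. The ratios are therefore per base of the copy and not per transcribed base. Solo LTRs and partial copies were not taken into account, and in DIVER2 the repeat found varied between 252 and 387 bases among 3 copies. With the median copy, the levels per kb of 5 elements differed between the parts by no more than 1.28 times. ROO had 775 normalised counts per kb on the internal part and 765 per kb on its LTRs, a ratio of 1.01, but with its longest copy of 26406 bases the ratio was 0.326. MAX had 266 and 275 per kb (0.966), DIVER2 had 143 and 145 per kb (0.988), and ROOA had 75.4 and 81.7 per kb (0.922). DM1731 had 149.7 and 117 per kb (1.28). With the longest copy these 4 ratios were 0.829 in MAX, 0.927 in DIVER2, 0.922 in ROOA and 1.27 in DM1731. Copia and DIVER kept a large excess on the internal part. Copia had 32082 normalised counts per kb on the internal part and 364 per kb on its LTRs, a ratio of 88.2. DIVER had 759.8 and 12.7 per kb, a ratio of 59.6. With the longest copy the ratios were 64.3 in Copia and 59.3 in DIVER. The longest copy held 2 nested annotations in Copia (6856 bases), 3 in MAX (9870 bases) and 1 in DIVER2 (5127 bases). These lengths therefore include inserted sequence. In ROO the longest copy held 0 nested annotations, but its 26406 bases stood against 9093 in the median copy. FROGGER had a ratio of 4.90, above the other 5 elements and below Copia and DIVER. This ratio rests on an LTR entry of 1.35 and on 1 copy with repeats, of 2483 bases. Per kb of internal part in the median copy, ROO and DIVER were close (775 and 759.8), although their LTRs were not (765 and 12.7).

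**Figure D3:**
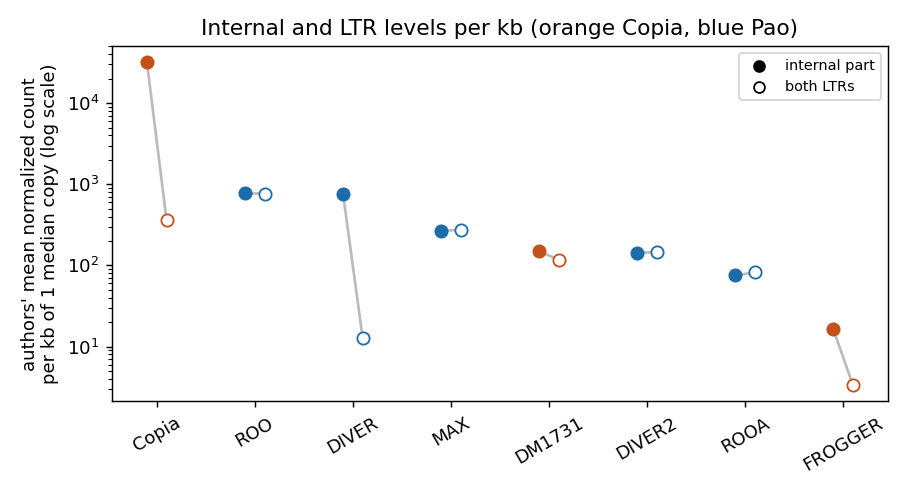
Authors' mean normalised count per kb (log scale) on the internal part and on both LTRs of the 8 elements with name-matched reference copies. Lengths are from the median copy with terminal repeats, with both LTRs at full length, so values are not per transcribed base. The 2 points nearly coincide for ROO, MAX, DIVER2 and ROOA (for ROO only with this length, the ratio being 0.326 with its longest copy), while Copia has 32082 against 364 and DIVER 759.8 against 12.7.

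Reference copies differed in how intact they were. By name, 303 annotated copies were found for these 8 elements, and 162 of them had detectable terminal repeats. Copia had 39 copies, of which 32 had repeats with a median length of 276 bases. In 32 of 32 the repeats were identical, and the 5 bases flanking the copy were the same on both sides, as left by integration. The longest open reading frame was 1409 codons in Copia. ROO had 144 copies, 103 with repeats (median 428 bases), of which 68 had identical repeats and 89 had equal flanks. Its longest open reading frame was 2360 codons. DIVER had 13 copies, 11 with repeats and 9 of these identical, and its longest frame was 1747 codons. MAX had 23 copies and 6 with repeats, DM1731 had 16 and 5, and their longest frames were 1830 and 1283 codons. The 49 DIVER2 copies held 3 with repeats, the 17 ROOA copies held 1 and the 2 FROGGER copies held 1, and 0 of these were identical. All frames given here are from copies with repeats, and the longest in DIVER2, ROOA and FROGGER were 362, 175 and 70 codons. Copies without repeats reached 364 codons in DIVER2, 826 in ROOA and 147 in FROGGER. These 3 elements had the lowest levels per kb of internal part. DIVER2 (143 per kb) was however close to DM1731 (149.7 per kb), whose longest frame was 1283 codons. The copies describe the reference strain and not the flies sequenced.

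The table also gave a mean for single annotated copies, as entries separate from the families. How reads shared by similar copies were divided between copies and families is not known. A value was present for 225 of the 303 copies. Of these 225, 167 were under 10 and 23 were at 100 or more. Copia supplied 12 of the 23, ROO and ROOA 3 each, DIVER2 and MAX 2 each, and DM1731 1. Copies of copia summed to 5695, which was 3.86% of the 2 copia family entries, and those of DIVER to 33.7, or 0.786%. The share was 21.2% in ROO, 17.7% in MAX and 44.8% in DM1731. In DIVER2 and ROOA the copies summed to more than the family entries (171% and 309.8%). Without copies that overlapped an exon of another gene, the shares were 67.3% in DIVER2, 95.7% in ROOA, 11.4% in ROO and 10.4% in DM1731, and they were 3.85% in Copia, 17.7% in MAX and 0.786% in DIVER.

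**Figure D4:**
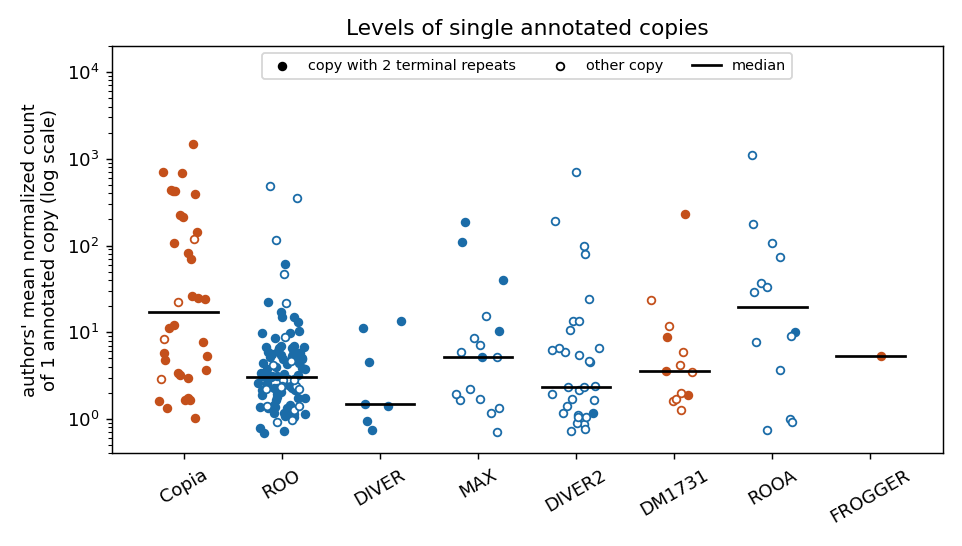
Authors' mean normalised count (log scale) of each annotated copy with a value, by element, with filled points for copies with 2 terminal repeats and a line at the median. The highest copies are a copia copy at 1492 and a rooA copy at 1100.1, and the medians are 17.2 in Copia and 3.03 in ROO.

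The 5 copies with the highest values lay inside annotated genes. The copia copy at chr3R:31413145-31418286, in an intron of *Gprk2* (a kinase of G protein-coupled receptors) and on the opposite strand, had a mean of 1492, while *Gprk2* itself had 1559. A rooA copy at chrX:21521879-21523176 had 1100.1 and overlapped an exon of lncRNA:CR46472 (mean 5188) on the opposite strand. A copia copy at chr2R:5217753-5222897 had 711, in an intron of *Nipped-A* and opposite to it. A DIVER2 copy at chr2R:5243319-5248321 had 699 and overlapped an exon of *Nipped-A* (mean 23788) on the same strand. That copy held 7 nested annotations and had no detected terminal repeats. *Nipped-A* encodes a large subunit of histone acetyltransferase complexes. The copia copy at chr3L:16684075-16689237, in introns of *CG43954* and *Lasp*, had 680. A copia copy outside any annotated gene, at chr3R:20109593-20114740, had 423. In all, 12 of the 23 copies at 100 or more lay between genes, 6 in introns and 5 over exons. Across all 303 copies, 146 lay between genes, 127 in introns and 30 over exons, and of the 157 in genes 88 were on the strand of a gene and 69 were on the opposite strand only. The part of the host genes' own RNA in these values was not tested.

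Copia copies with a long reading frame occurred at both low and high values. The 16 copies with repeats and at least 95% of the longest frame had a median of 3.55, with a range of 1.04 to 711. The 16 copies with repeats and a shorter frame had a median of 87.6, with a range of 2.97 to 1492, so the ranges overlapped widely. Whether these values depend on how reads shared by similar copies were counted was not tested. In ROO the medians were close, at 2.98 over 46 copies with a value and a long frame and 3.51 over 38 with a shorter one. A ROOA copy with a value of 107 lay at chr3L:23637625-23644445, in an intron of and opposite to *AGO3* (mean 15245), which encodes an Argonaute protein of the piRNA pathway. That ROOA copy held 3 nested annotations.

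The sample labels and the study's methods name ovaries, and the labels give germline cells as the cell type, whereas the design text of the series names testes. Markers of germ cells had a value in 8 of 9 genes (835 to 29523) and markers of follicle cells in 10 of 10 (646 to 161945), so the libraries also held somatic follicle cells. Genes listed as muscle markers of the ovarian sheath had a value in 5 of 5. The highest was *Tm1* with 17213, and the others lay between 256 and 3974. The 7 testis markers lay between 2.53 and 68.9. The list of piRNA pathway genes had values of 757 to 18635 in 19 of 19 genes. It shares *aub* and *vas* with the germ cell list. Which cell type carried the RNA of each element was not tested.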

How the data were processed

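RNA-seq was measured in ovaries of 3 D1 mutant and 3 control samples. According to the study's methods, adaptors and poor bases were trimmed with BBTools, STAR mapped the reads to BDGP6.32, TEtranscripts counted genes and TEs, and the authors fitted DESeq2 (1.37.4 per the labels). The versions of STAR and TEtranscripts, the annotation release, the counting mode and the use of strand are not given in the sources used here, so reads from related repeats, overlapping genes and antisense genes may not be told apart. The signal used is the mean normalised count per feature that the authors deposited, pooled over both genotypes. The other deposited columns hold the authors' comparison of the genotypes (log2 fold change, standard error, test statistic, p-values and marks of direction) and were not used. No value per library was used, so depth and replicate error are unknown.

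A total of 9 rows without a name were left out. Levels, shares and ratios of paired entries were computed with Python 3.11.15 and pandas 2.3.3, and plotted with matplotlib 3.10.9. Copies were matched by name to transposable elements of the Ensembl BDGP6.54 annotation, which is of the same genome release as BDGP6.32, and sequences were read from the RefSeq genome. Detection of terminal repeats was tested on simulated sequences with base substitutions only, without insertions, deletions or nested elements. Some repeats found in the reference were less alike than those simulated, down to 81.56% identity in DIVER2. For such copies the detection was not tested. Named entries were the 15 highest members, elements with a summed mean of at least 100 and the extremes of the ratio. Single copies, their genes and the elements under 100 were named after their values were seen. The members and lists were chosen with earlier results of these data known. Alternatives were entries added per element, a minimum of 10, other denominators, ratios per base and other copy lengths.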

Additional observations from a re-analysis of the deposited data

How the results depend on the processing

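With one mean per entry, most values moved with the setting, and no test was involved. The median level of the members, 211 over single entries, was 788 with the entries of an element added and 508 over entries at 10 or more. The share of TE family counts, 53.4%, was 64.8% of the LTR class and 13.0% without Copia_I-int. It was 43.7% with the name-matched copies of 8 elements added to the members and all annotated insertions added to the total. Any insertions of members without matched copies therefore entered the total only. The median ratio of internal to LTR entry, 15.4 over 13 pairs, was 10.9 over the 9 pairs with both entries at 10 or more and 1.10 per base with the longest copy of 8 elements. The longest copy with terminal repeats had a median over elements of 6458 bases. With copies of at least 80% of each element's own longest such copy, the median over elements was 6494.5 bases. That cut kept only 4 copies in ROO and 1 in Copia, so it does not give the length of a typical copy there. Alternatives chosen after seeing the data gave a median ratio of 1.15 per base with the median copy, 10.8 for the same 8 pairs without scaling, and a copy length of 5639.5 bases with the median copy. Per base, the ratio in Copia was 64.3 with the longest and 88.2 with the median copy, and in ROO it was 0.326 with the longest and 1.01 with the median copy, values on either side of 1 for ROO.

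No paired analysis was possible because the values used are pooled over libraries and carry no replicate number. Leaving out replicates was not run for the same reason. Depth, and with it the precision of low means such as DIVER_LTR (6.25), is unknown.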

Other observations

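Of the 303 copies, 2 were annotated under a second identifier, and 1 of these had the same value under both. The copia copies were spread over the chromosome arms, with 12 on 2L, 8 on 2R, 9 on 3L, 5 on 3R and 5 on X. ROO had 26 on 2L, 28 on 2R, 33 on 3L, 28 on 3R and 29 on X. DIVER2 had 20 of 49 copies on 2R and 16 on 3L, MAX had 13 of 23 on 2R, and ROOA had 9 of 17 on 2R. These are counts in the reference assembly, with no correction for the length of the arms.

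The copy of ROO with the highest value (491) was an annotation of 30008 bases at chrX:21523759-21553766 that held 10 nested annotations of other elements and also overlapped lncRNA:CR46472. The rooA copy with the highest value, 1100.1, overlapped the same gene. A DM1731 copy at chr2R:1516663-1521332 had 232, which was 76.8% of the summed mean of all DM1731 copies, and it overlapped an exon of *Maf1* (mean 5719), a repressor of RNA polymerase III, on the same strand.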
